A study of Mus musculus with 6 samples.

Results

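Ribosomal proteins of the cytoplasmic ribosome were followed at the mRNA level in early thymic natural killer T (NKT) cells with and without the histone demethylases UTX and JMJD3. The genes were taken by name from the deposited table, as rows whose symbol is Rpl or Rps with a number and at most 1 further letter (a, x, y or l), or Rplp0, Rplp1, Rplp2 or Rpsa, with no pseudogene. This gave 75 genes of the 10755 genes in the table, 45 of the large subunit and 30 of the small subunit. Of the 77 genes on textbook lists of both subunits 74 were present, while Rpl41, Rps13 and Rps27 were not analysed here, and Rps27l is the member outside those lists.

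The cytoplasmic ribosome has a small subunit, which binds and reads the mRNA, and a large subunit, which forms peptide bonds, and nearly every ribosomal protein is present in each ribosome in a single copy. Ribosomal protein mRNAs are among the most abundant in growing cells, and most begin with a C followed by a run of pyrimidines, the 5′ terminal oligopyrimidine (5′ TOP) tract, through which the kinase complex mTORC1 controls their translation. The mouse genome carries many processed pseudogenes of these genes, intronless copies that arose from their mRNAs. In developing T cells free ribosomal proteins are also known to act on p53, and loss of some of them stops development at particular stages.

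The libraries came from fresh mouse thymus on a mixed C57BL/6 and 129 background, and polyA RNA went through an amplification protocol for small cell numbers. The sorted P1 cells bound the CD1d-PBS-57 tetramer and were negative for CD24, NK1.1 and CD44. The DKO group (genotype UTX/JMJD3 DKO) had 3 libraries and the WT group 3 libraries, each with 2 from females (replicates 1 and 2) and 1 from a male (replicate 3). UTX (gene Kdm6a) and JMJD3 (gene Kdm6b) are demethylases of lysine 27 on histone H3, a residue whose methylation marks silenced genes, and the series title ties both to NKT development. Age, the deleting Cre line and any pooling of animals were not stated by the labels, so p-values measure only the spread between these libraries. Values are RPKM, reads scaled to gene length in kilobases and to sequencing depth.

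The steps of the values implied 34.4, 7.08 and 6.45 M reads for DKO replicates 1 to 3 and 32.4, 7.24 and 5.04 M reads for WT replicates 1 to 3. Kdm6a had 4.97, 5.28 and 3.53 RPKM in DKO libraries, against 7.06, 4.86 and 1.94 RPKM in WT libraries. Kdm6b had 1.41, 0.978 and 2.59 RPKM in DKO libraries, against 1.62, 3.12 and 3.65 RPKM in WT libraries. The groups overlapped for both genes, and a whole-gene value does not separate the deleted part of a gene from the rest, so neither gene checked the labels. All 13 listed NKT and T cell markers were in the table, with summed RPKM of 5287 to 6476 in DKO libraries and 5089 to 5720 in WT libraries, though Thy1 had 38.5, 0.732 and 41.7 RPKM in DKO libraries, against 149, 269.9 and 202 RPKM in WT libraries. Zbtb16, the defining NKT transcription factor, was low in every library, at 0.776 to 5.35 RPKM in DKO and 2.67 to 3.50 RPKM in WT. Of 8 markers of immature CD4 and CD8 double-positive or double-negative thymocytes 6 were in the table, with summed RPKM of 452, 72.1 and 38.4 in DKO replicates 1 to 3 and 424, 47.2 and 32.6 in WT replicates 1 to 3. Cd8a had 148 RPKM in DKO replicate 1 and 174 RPKM in WT replicate 1, and at most 5.71 RPKM in the other libraries, so replicate 1 of each genotype stood apart by these markers and by depth. Of the B cell, myeloid and erythroid lists 1 gene each was in the table (Ighm, Cst3 and Hba-a2), and of 8 epithelial and stromal markers 0 were.

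Rows of the table can share reads with near-identical copies of the same gene, and the coding starts below show how near. In GENCODE M21 annotation, 36-base windows of the members' coding transcripts also occurred in other genes for a median of 42.1% of windows per member, up to 91.1% in Rpl36, and for over 50% of windows in 24 members. The table held 436 rows of such copies, belonging to 69 of the 75 members. The others, among them Rpl4, Rpl8, Rpl24, Rps3 and Rps9, had no copy in the table. The first 90 coding bases of Rpl30 (chromosome 15, 34440505 to 34443640, minus strand, GRCm38) are shown with the same stretch of 4 of its 9 copies in the table, because the Rpl30 row and its copies went opposite ways. The copies lie on chromosomes 11, 6, 12 and X, and capitals mark bases that differ from Rpl30.
Rpl30: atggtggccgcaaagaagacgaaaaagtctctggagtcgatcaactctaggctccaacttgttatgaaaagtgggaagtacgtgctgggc
Gm12191: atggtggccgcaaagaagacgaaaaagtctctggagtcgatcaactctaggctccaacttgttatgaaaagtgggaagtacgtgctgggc
Rpl30-ps1: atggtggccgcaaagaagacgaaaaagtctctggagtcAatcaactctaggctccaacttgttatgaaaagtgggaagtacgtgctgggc
Rpl30-ps8: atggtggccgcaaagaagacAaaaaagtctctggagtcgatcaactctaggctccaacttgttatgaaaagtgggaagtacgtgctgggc
Rpl30-ps10: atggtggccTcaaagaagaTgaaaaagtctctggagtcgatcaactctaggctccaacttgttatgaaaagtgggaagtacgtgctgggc
Where aligned to the 348 coding bases of Rpl30, Gm12191 was 99.7% identical, and Rpl30-ps1, Rpl30-ps8 and Rpl30-ps10 were each 99.1% identical. Gm12191 carried no difference in the stretch shown.

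Rps3a is another member whose row and copies parted, and its first 90 coding bases (chromosome 3, 86137940 to 86142702, minus strand, GRCm38) are shown with 3 of its 4 copies in the table, on chromosomes 13, 14 and 2. Capitals again mark differences from the member.
Rps3a: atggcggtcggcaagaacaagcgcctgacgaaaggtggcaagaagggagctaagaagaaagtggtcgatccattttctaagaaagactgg
Rps3a3: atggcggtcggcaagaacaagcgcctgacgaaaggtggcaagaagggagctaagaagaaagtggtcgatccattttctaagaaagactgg
Rps3a2: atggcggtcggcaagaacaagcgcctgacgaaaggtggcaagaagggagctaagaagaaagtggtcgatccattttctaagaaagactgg
Gm13408: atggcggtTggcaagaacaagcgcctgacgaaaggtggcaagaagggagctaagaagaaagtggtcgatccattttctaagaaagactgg
Over 795 coding bases Rps3a3 and Gm13408 were each 98.9% identical to Rps3a where aligned, and Rps3a2 was 99.5% identical. Windows of 36 bases within the identical parts match more than 1 gene.

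Starts of transcription were described for the 54 members with an entry in the RefSeq promoter table (GRCm38.p6). Of these, 11 (20.4%) had a C at the annotated start followed by at least 4 C or T, against 2.49% of 27025 genes, and 20 (37.0%) had a run of at least 8 C or T from 10 bases before to 20 after the start, against 11.6% of genes. The letters CCGGAAG, a core bound by ETS factors of the GABP kind, occurred on either strand of the 300-base entry in 22 members (40.7%), against 9.12% of genes. ATGGCGG, a YY1 core, occurred in 8 members (14.8%, against 4.19%), GGGCGG, an Sp1 core, in 32 (59.3%, against 35.9%), and TATAAA in 5 (9.26%, against 14.2%). A set of 3 windows from 20 bases before the annotated start to 20 bases from it onward is shown because the genes range over the members' changes, and capitals mark the longest run of C or T from 10 bases before the start onward. They lie at chr7:118116128-118116167 on the minus strand, chr4:86857348-86857387 on the minus strand and chr9:66946066-66946105 on the plus strand.
Rps15a: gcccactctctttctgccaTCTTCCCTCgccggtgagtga
Rps6: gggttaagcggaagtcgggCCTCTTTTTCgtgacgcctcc
Rps27l: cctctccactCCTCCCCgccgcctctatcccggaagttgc
In Rps15a and Rps6 the annotated start fell on a C inside the run, and in Rps27l the run ended before the start. Rps27l has another listed start that is not shown. These are descriptions of the annotated letters only, and a relation of the run to the change was not tested.

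Ribosomal protein genes held 7.10%, 7.62% and 7.77% of the reads in the table in DKO replicates 1 to 3, against 5.73%, 6.90% and 7.29% in WT replicates 1 to 3. The mean share was 7.50% ± 0.35 in DKO libraries and 6.64% ± 0.81 in WT libraries (SD, n = 3 each), a difference of 0.855 percentage points that was about the SD of the WT libraries, and the groups overlapped. WT replicate 1 was the lowest library and DKO replicate 3 the highest. The median member had 715, 805 and 962 RPKM in DKO libraries, against 610.4, 750.1 and 813 RPKM in WT libraries. With the reads of their copies added, the families held 17.9%, 19.8% and 20.7% of listed reads in DKO libraries, against 14.7%, 18.4% and 19.0% in WT libraries, and the members' own rows took 37.5% to 39.6% of these over all 6 libraries. How reads that match several rows were counted is not given in the sources used here, so these shares may count a read more than once. Of the 511 rows of members and copies, 6 copies had the same length and the same RPKM in every library as another copy, and with each such pair counted once the families held 17.6%, 19.5% and 20.4% in DKO libraries, against 14.4%, 18.1% and 18.7% in WT libraries.

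**Figure D1:**
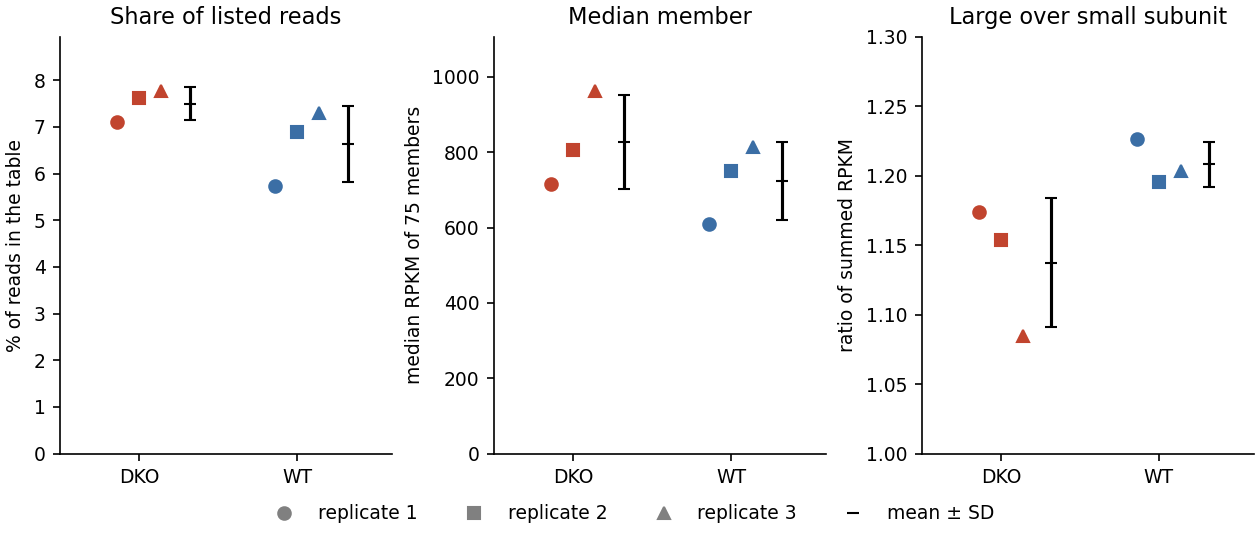
Share of listed reads on the 75 members (left, %), RPKM of the median member (middle) and summed RPKM of the large subunit genes over that of the small subunit genes (right, axis from 1.0), for the 3 DKO and 3 WT libraries. Marks are libraries, and black bars are mean ± SD. The share overlaps between the groups, while the 3 DKO ratios (1.08 to 1.17) lie below the 3 WT ratios (1.20 to 1.23). All panels use the members' own rows, without their copies.

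On own rows, the ratio of large to small subunit genes was lower in all 3 DKO libraries than in all 3 WT libraries. Summed RPKM of large over small subunit genes was 1.17, 1.15 and 1.08 in DKO replicates 1 to 3, against 1.23, 1.20 and 1.20 in WT replicates 1 to 3, with means of 1.14 ± 0.05 and 1.21 ± 0.02 (SD, n = 3 each). The groups did not overlap, with replicate 1 of each genotype the highest of its group. Without the 3 most abundant members the ratio was 1.06, 1.05 and 0.981 in DKO libraries, against 1.14, 1.10 and 1.10 in WT libraries. No p is given for these sums over chosen genes. Own rows held 37.5% to 39.6% of the reads of members and copies, and the ratio with copies added was not calculated.

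Across single genes 65 of the 75 members had a log2 change above 0 in DKO relative to WT, against 42.9% of the 10694 genes tested. Their median log2 change was 0.15, beside a median of -0.11 over all genes tested, both on the log2(RPKM + 1) scale with no further scaling. None of the 75 passed the test after adjustment (limma, Benjamini-Hochberg adjusted p under 0.05), a call made for 0.0842% of all genes tested (9 genes). At an unadjusted p under 0.05, 2 members were lower in DKO (Rpl30 and Rps27l), against 8.14% of genes, and 2 were higher (Rps3a and Rps20), against 2.88% of genes. With voom on the recovered reads 0 members passed after adjustment as well, and at an unadjusted p under 0.05, 2 were lower, against 10.4% of genes in that fit, and 7 were higher, against 5.26% of genes. With the replicate number as a block, which the labels do not give as a pairing, 0 members passed after adjustment, and 17 were higher at an unadjusted p under 0.05, against 4.39% of genes, and 2 lower, against 10.5% of genes. All 75 passed the filter on low values, and the lowest read count of a member in any library was 217.

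The tilt of the members was smaller without 1 library. Without WT replicate 1, the count above 0 was 40 of 75 and the median log2 change 0.00, beside a median of -0.11 over all genes in that fit, with DKO replicate 1 still included. WT replicate 1 held the lowest value of all 6 libraries for 56 members. By replicate number, the median difference of DKO minus WT was 0.35 for replicate 1 (70 of 75 above 0), 0.04 for replicate 2 (42 of 75) and 0.18 for replicate 3 (57 of 75), while the median over all genes was -0.06, -0.15 and -0.05. Within each genotype replicate 1, the deeper library with thymocyte transcripts, was most often the lowest, for 45 members among DKO libraries and for 60 among WT libraries, and the part of depth and of thymocytes in this was not tested. Outside these libraries, with replicates 2 and 3 alone, 51 of 75 were above 0 and the median log2 change was 0.09, beside -0.12 over all genes. In bulk samples, fewer cells of a type and less RNA per cell cannot be told apart.

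**Figure D2:**
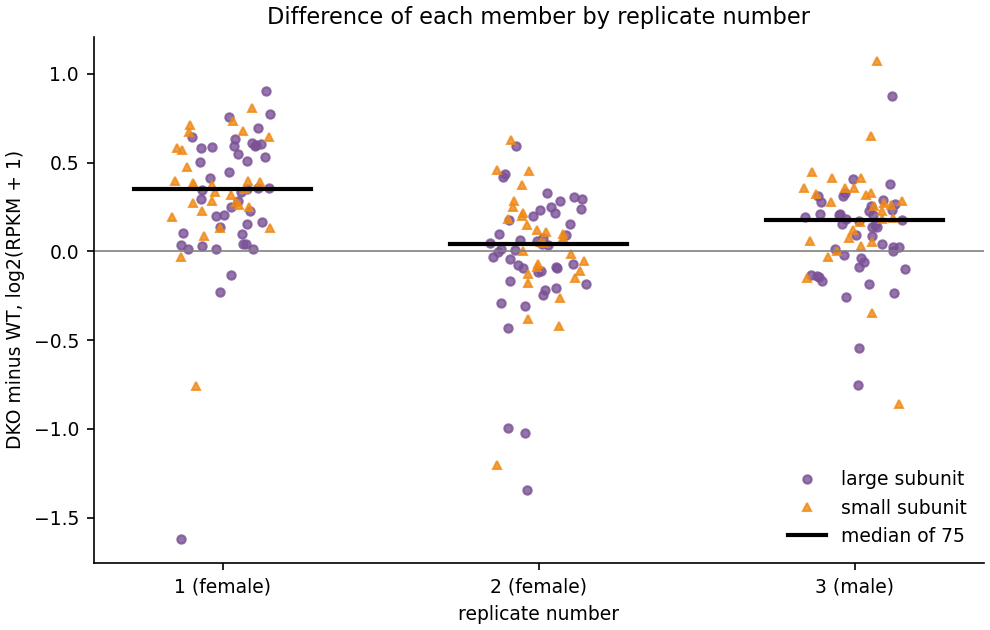
Difference of DKO minus WT in log2(RPKM + 1) for each of the 75 members (vertical axis), by replicate number (horizontal axis), with circles for large and triangles for small subunit genes and a black line at the median of the 75. The median lies at 0.35, 0.04 and 0.18, and a few genes lie far below the others in each column.

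The size of the tilt also depended on the scaling. Quantile normalization moved the median of all genes to 0.01, and 55 of 75 members were then above 0, with a median log2 change of 0.07. Other abundant genes leaned the same way as the members, since of 591 other genes with a mean of at least 200 RPKM 375 were above 0, with a median log2 change of 0.09. Of the 2844 other genes under 1000 bases long 1186 were above 0, with a median of -0.13. The median spread within groups was 0.28 (SD, log2) for members and 0.27 for the other abundant genes, against 0.48 for all genes.

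**Figure D3:**
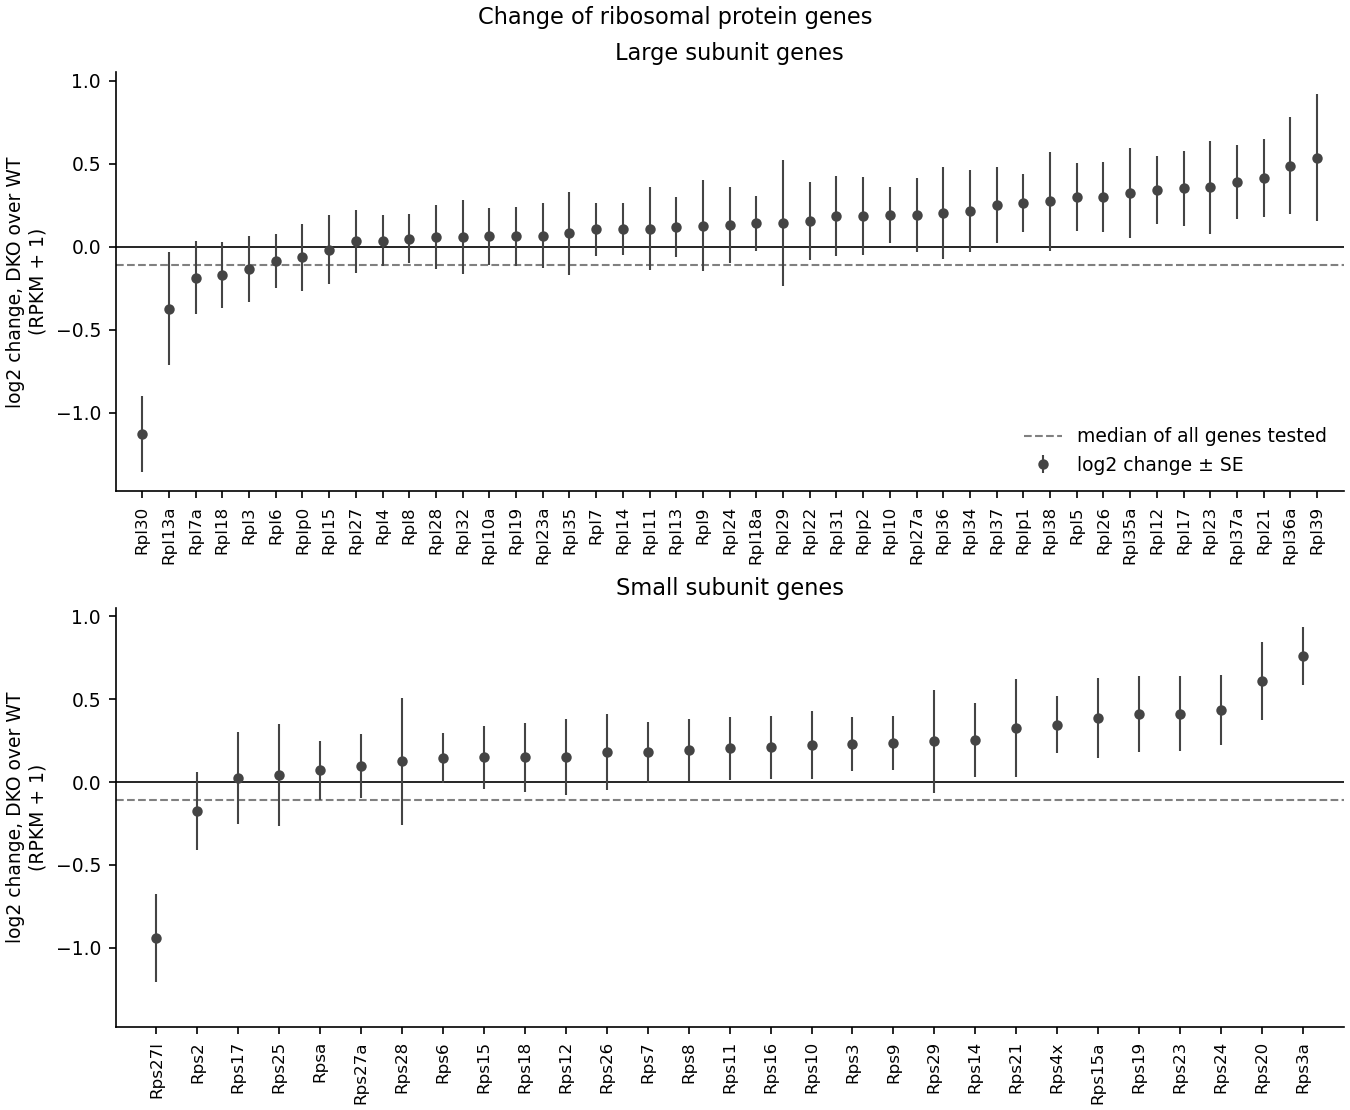
Log2 change of DKO over WT (vertical axis, RPKM + 1) for the 45 large subunit genes (top) and all but 1 of the 30 small subunit genes (bottom), ordered by change, with bars of ± 1 SE from limma. The dashed line is the median of all genes tested, -0.11. Rpl30 (-1.13) and Rps27l (-0.94) stand apart at the low end, and Rps3a (0.76) and Rps20 (0.61) at the high end.

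In the large subunit 37 of 45 genes had a log2 change above 0, with a median of 0.13 and a range of -1.13 to 0.54. In the small subunit 28 of 30 were above 0, with a median of 0.20 and a range of -0.94 to 0.76. Groups that did not overlap, a DKO range wholly above the WT range, were found for 8 members, against 5.71% of all genes tested, and 7 of the 8 were of the small subunit, with Rps3a, Rps4x, Rps6, Rps9, Rps19 and Rps24 among them. Rpl10 was the large subunit gene among them. DKO ranges wholly below the WT range were found for 2 members, Rpl30 and Rps27l, against 11.4% of genes. The difference between the subunits was not tested.

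Levels differed among members far more than between genotypes. Mean RPKM over all libraries ran from 42.5 for Rpl13a to 3836 for Rplp1, a 90.3-fold range, with 29 members over 1000 RPKM and 73 among the 1000 highest genes of the table. Where a member has copies, its row may not hold all reads of its mRNA, and levels are compared here as RPKM of rows.

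Rplp0, Rplp1 and Rplp2 form the stalk of the large subunit, which recruits the elongation factors. Rplp1 had 3938, 4144 and 4412 RPKM in DKO libraries, against 2781, 3967 and 3771 RPKM in WT libraries. The groups overlapped, with WT replicate 1 the low library. Its log2 change was 0.26 ± 0.17 (SE; adjusted p = 0.613), below 0 under quantile normalization. Rplp0 had 3248, 2879 and 2236 RPKM in DKO libraries, against 3151, 2326 and 3263 RPKM in WT libraries, with log2 change -0.06 ± 0.20. DKO replicate 3 was the lowest of the 6, and the sign turned under median ratio scaling. Rplp2 had 1582, 1574 and 2139 RPKM in DKO libraries, against 1083, 1864 and 1789 RPKM in WT libraries, again with overlap. Rpl12, which sits at the base of the stalk, had 476, 581 and 552 RPKM in DKO libraries, against 334, 477 and 470.4 RPKM in WT libraries. Its log2 change was 0.34 ± 0.20, and DKO replicate 1 fell just inside the WT range.

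Rpl4 and Rpl39 line the tunnel through which the new protein leaves the large subunit. Rpl4 had 3548, 3181 and 3264 RPKM in DKO libraries, against 3088, 3020 and 3660.4 RPKM in WT libraries, a log2 change of 0.04 ± 0.15. Quantile normalization brought it to -0.00. Rpl39, whose row spread more than those of most members, had 518, 1219 and 985 RPKM in DKO libraries, against 339, 807 and 742 RPKM in WT libraries. Replicate 1 was the lowest library of each genotype, and the change of 0.54 ± 0.38 had an adjusted p of 0.637. Rpl3, close to the peptide-bond centre, had 521, 455 and 608 RPKM in DKO libraries, against 610.4, 479.7 and 651 RPKM in WT libraries, with overlap and a log2 change of -0.13 ± 0.20. Rpl10, which joins late and is needed for the subunits to pair, had 619.8, 594 and 580.2 RPKM in DKO libraries, against 492, 503 and 579.9 RPKM in WT libraries. Its groups were separate only by the margin between DKO replicate 3 and WT replicate 3.

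Rpl5 and Rpl11 form a particle with 5S rRNA that can bind the p53 inhibitor Mdm2 when ribosome assembly is disturbed. Rpl5 had 955, 1167 and 887 RPKM in DKO libraries, against 635, 929 and 899.8 RPKM in WT libraries, with a log2 change of 0.30 ± 0.20. Rpl11 had 366, 550.2 and 567 RPKM in DKO libraries, against 333, 535 and 509.9 RPKM in WT libraries, and its change of 0.11 ± 0.25 turned below 0 without WT replicate 1. Both groups overlapped in both genes. Rpl22, required in mice for development of alpha-beta T cells though not for general translation, had 954, 1189 and 1368 RPKM in DKO libraries, against 747, 1269 and 1186 RPKM in WT libraries. Rpl38, tied in mice to translation of Hox mRNAs, had 277, 378 and 321 RPKM in DKO libraries, against 163, 318 and 364 RPKM in WT libraries. Rpl24, with no copy in the table, had 438, 527 and 531 RPKM in DKO libraries, against 329.5, 569 and 498 RPKM in WT libraries. The changes of Rpl22, Rpl38 and Rpl24 (0.15 ± 0.24, 0.27 ± 0.30 and 0.13 ± 0.23) were each below 0 without WT replicate 1.

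The large subunit genes with the smallest p above 0, besides Rpl12, were Rpl36a, Rpl37a and Rpl21. Rpl36a had 325, 520.3 and 399 RPKM in DKO libraries, against 189.7, 389 and 329.7 RPKM in WT libraries (log2 change 0.49 ± 0.29, adjusted p = 0.570). Rpl37a had 715, 844 and 853 RPKM in DKO libraries, against 442, 728 and 709.9 RPKM in WT libraries. Rpl21, with 36 copies in the table, had 203, 255 and 245 RPKM in DKO libraries, against 130.5, 208 and 197 RPKM in WT libraries. In each of these genes DKO replicate 1 lay inside the WT range and WT replicate 1 was the lowest library. Below 0, besides Rpl30, were Rpl13a, Rpl18 and Rpl7a, all with overlapping groups. Rpl18 had 177, 137 and 152 RPKM in DKO libraries, against 175, 168 and 179 RPKM in WT libraries. Rpl7a had 324, 234 and 307 RPKM in DKO libraries, against 356, 262 and 367 RPKM in WT libraries, a log2 change of -0.19 ± 0.22.

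Rpl30, which in yeast represses splicing of its own transcript, had the log2 change farthest from 0 of any member. Its row had 69.4, 93.9 and 96.8 RPKM in DKO libraries, against 215, 192 and 164 RPKM in WT libraries. All 3 DKO libraries lay below all 3 WT libraries, in both sexes and within each replicate number. DKO was at 0.456 of the WT level by the means (86.7 ± 15.1 RPKM in DKO and 190.2 ± 25.8 RPKM in WT; SD, n = 3 each), and the log2 change was -1.13 ± 0.23 (SE; limma adjusted p = 0.126). Over 20 other settings of the fit on this row it ranged from -1.32 to -0.98 with adjusted p from 0.0716 to 0.4999. The 9 copies of Rpl30 went the other way, each with a log2 change above 0, between 0.24 and 0.61.

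**Figure D4:**
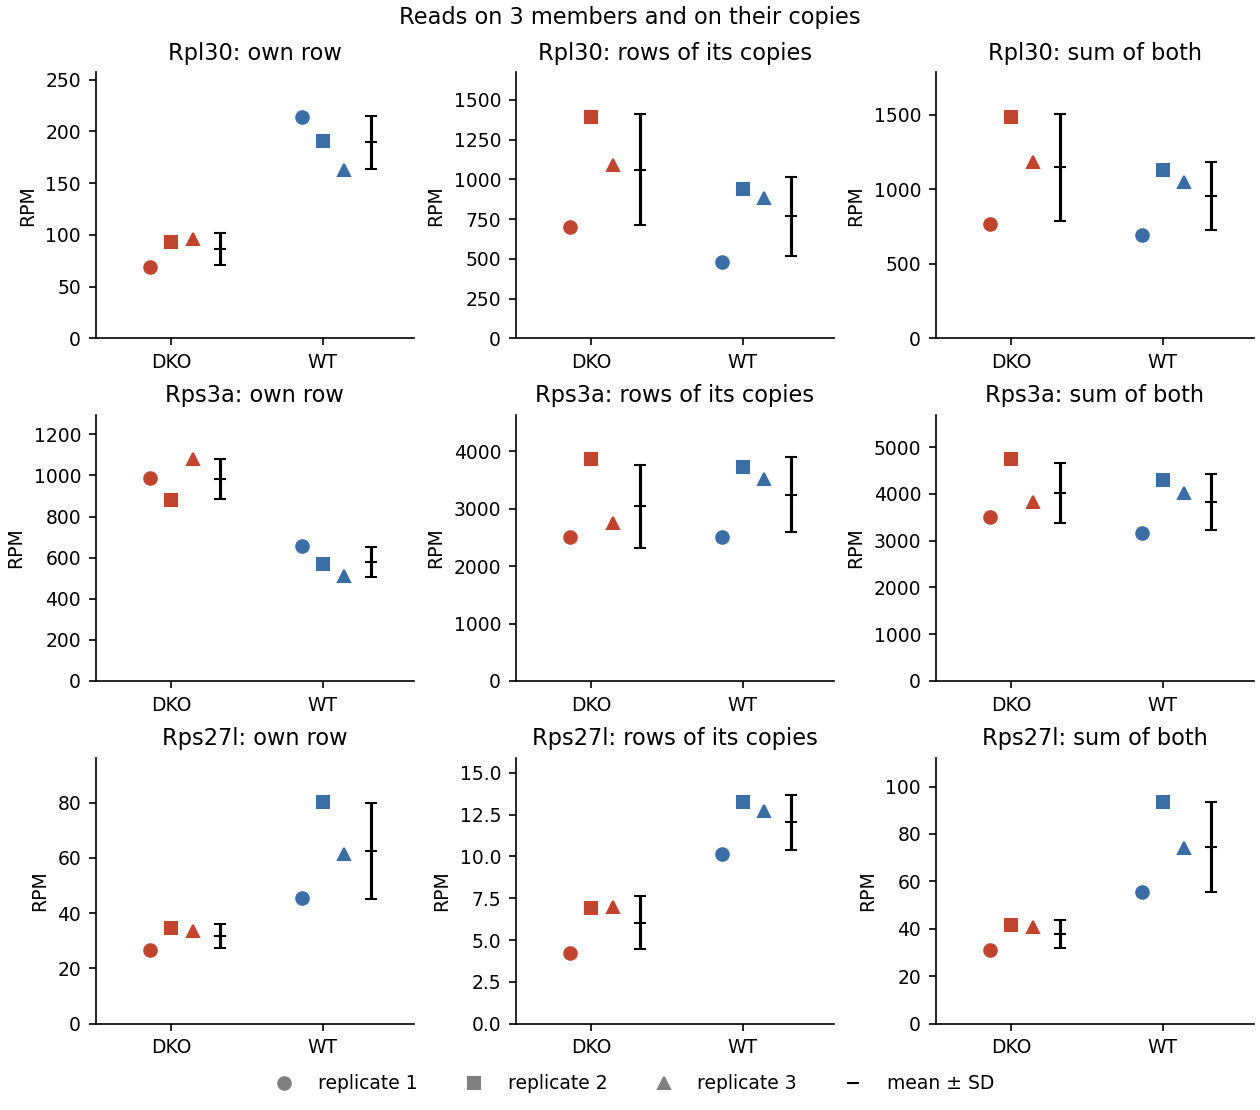
Reads scaled to sequencing depth (RPM, vertical axes, each from 0) on the own row of Rpl30, Rps3a and Rps27l (left), on the rows of their copies together (middle) and on both summed (right), for 3 DKO and 3 WT libraries; marks are libraries and black bars mean ± SD. For Rpl30 and Rps3a the groups part on the own row and overlap in the sum, and for Rps27l they part in all 3 panels.

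In reads scaled to depth but not to length (RPM, RPKM times the length in kilobases), the Rpl30 row had 69.1, 93.5 and 96.4 in DKO libraries, against 214, 190.9 and 163 in WT libraries. The rows of its copies together had 700.2, 1394 and 1089 in DKO libraries, against 480.0, 936 and 884 in WT libraries. The own row held 8.98%, 6.29% and 8.13% of the family's reads in DKO libraries, against 30.9%, 16.9% and 15.6% in WT libraries. The sum had 769, 1488 and 1186 RPM in DKO libraries, against 694, 1127 and 1047 in WT libraries, with overlapping groups. In a fit with members summed with their copies, chosen after seeing the data, the log2 change of Rpl30 was 0.24 ± 0.27 with an adjusted p of 0.775. The largest copies were Rpl30-ps10, with 386, 830.1 and 599 RPKM in DKO libraries, against 239, 513 and 471 RPKM in WT libraries, and Rpl30-ps1, with 298, 668 and 512 RPKM in DKO libraries, against 187, 386 and 397 RPKM in WT libraries. Gm12191, without a difference in the printed stretch, had 373, 548 and 553 RPKM in DKO libraries, against 268, 449 and 398 RPKM in WT libraries.

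Rpl13a, known in human cells as a translational repressor once released from the ribosome, had a small own row of this kind, with 37.3, 23.3 and 52.2 RPKM in DKO libraries, against 36.9, 47.6 and 57.6 RPKM in WT libraries. The row held a mean of 3.98% of its family's reads. Its log2 change was -0.37 ± 0.34, while its 3 copies together had a log2 change of 0.33 and the sum 0.30.

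Abundant small subunit genes included Rps26 and Rps3, which lie along the path of the mRNA. Rps3 had 1911, 2136 and 2443 RPKM in DKO libraries, against 1744, 1756 and 2020.0 RPKM in WT libraries, with a log2 change of 0.23 ± 0.16. Rps26 had 1722, 2134 and 2507.5 RPKM in DKO libraries, against 1349, 2133 and 2207 RPKM in WT libraries, with overlap. Rpsa, also described as a laminin-binding protein, had 1889, 1409 and 1632 RPKM in DKO libraries, against 1651, 1359.9 and 1667 RPKM in WT libraries. Its change of 0.07 ± 0.18 was below 0 under quantile normalization.

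Rps20, in the head of the small subunit, had 1833, 2382 and 2626 RPKM in DKO libraries, against 1047, 1839 and 1675 RPKM in WT libraries. DKO replicate 1 lay just under WT replicate 2, and the other DKO libraries lay above all WT libraries. The log2 change was 0.61 ± 0.24 (limma adjusted p = 0.382), and its own row held 90.9% of the family's reads. Rps24 had 1294, 1513 and 1497 RPKM in DKO libraries, against 779, 1269.8 and 1192 RPKM in WT libraries, without overlap (log2 change 0.44 ± 0.21, adjusted p = 0.492). Rps19, the gene most often mutated in human Diamond-Blackfan anaemia, had 356, 397 and 455 RPKM in DKO libraries, against 223, 346 and 355 RPKM in WT libraries. Those groups were separate by the margin between DKO replicate 1 and WT replicate 3. Rps4x, encoded on the X chromosome, had 1945, 2508 and 2066 RPKM in DKO libraries, against 1477, 1828 and 1816 RPKM in WT libraries, also without overlap (0.35 ± 0.17, adjusted p = 0.510).

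Rps6, the substrate of the S6 kinases downstream of mTORC1, had 1336, 1252 and 1277 RPKM in DKO libraries, against 1115, 1171 and 1212 RPKM in WT libraries. The ranges were separate and narrow, and the change was 0.14 ± 0.15. Rps14, whose loss causes the anaemia of the human 5q deletion syndrome, had 1178, 754 and 1168 RPKM in DKO libraries, against 897, 699 and 975 RPKM in WT libraries. Replicate 2 was the low library of each genotype. Rps27a, made as a fusion with ubiquitin, had 451, 531 and 594 RPKM in DKO libraries, against 425, 557 and 490.1 RPKM in WT libraries. Rps15a had 404, 602 and 600.8 RPKM in DKO libraries, against 309, 440.2 and 480.1 RPKM in WT libraries, a log2 change of 0.39 ± 0.24. Rps2 was the other small subunit gene below 0, with 679, 454 and 639 RPKM in DKO libraries, against 695, 505 and 813 RPKM in WT libraries. Its change of -0.18 ± 0.24 was 0.00 without DKO replicate 2.

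Rps3a had the highest change of the small subunit. Its row had 1144, 1019 and 1248 RPKM in DKO libraries, against 762, 660.5 and 593 RPKM in WT libraries. All DKO libraries lay above all WT libraries, 1.69-fold by the means, and WT replicate 1 was the highest of its group. The log2 change was 0.76 ± 0.18 (limma adjusted p = 0.167), and adjusted p ranged from 0.0839 to 0.657 over the same 20 settings. Of its copies Rps3a3 had 919, 2010.2 and 1017 RPKM in DKO libraries, against 1215, 2211 and 2074 RPKM in WT libraries, a log2 change of -0.52. Rps3a2 had 1022, 1208 and 1091 RPKM in DKO libraries, against 853, 1067 and 1011 RPKM in WT libraries, and Gm13408 had a log2 change of 0.20. Own row and copies together had 3502, 4741 and 3821 RPM in DKO libraries, against 3159, 4293 and 4021 in WT libraries. The groups overlapped, and the log2 change of the sum was 0.07 ± 0.18 (adjusted p = 0.904).

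Rps27l, a paralogue of Rps27 known as a p53-inducible gene, gave like values with and without its copy. Its row had 55.1, 71.4 and 69.4 RPKM in DKO libraries, against 94.0, 165 and 127 RPKM in WT libraries. All DKO libraries lay below all WT libraries, at 0.507 of the WT level by the means, with a log2 change of -0.94 ± 0.27 (limma adjusted p = 0.230). Its copy Gm14706 had 16.6, 27.1 and 27.4 RPKM in DKO libraries, against 39.7, 52.0 and 49.8 RPKM in WT libraries. The sum had 31.0, 41.5 and 40.6 RPM in DKO libraries, against 55.7, 93.5 and 74.3 in WT libraries, and a log2 change of -0.95 ± 0.26 (adjusted p = 0.211). The own row held a mean of 83.8% of the family's reads, so the sum had to lie near it. Rps27 itself was not analysed here.

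**Figure D5:**
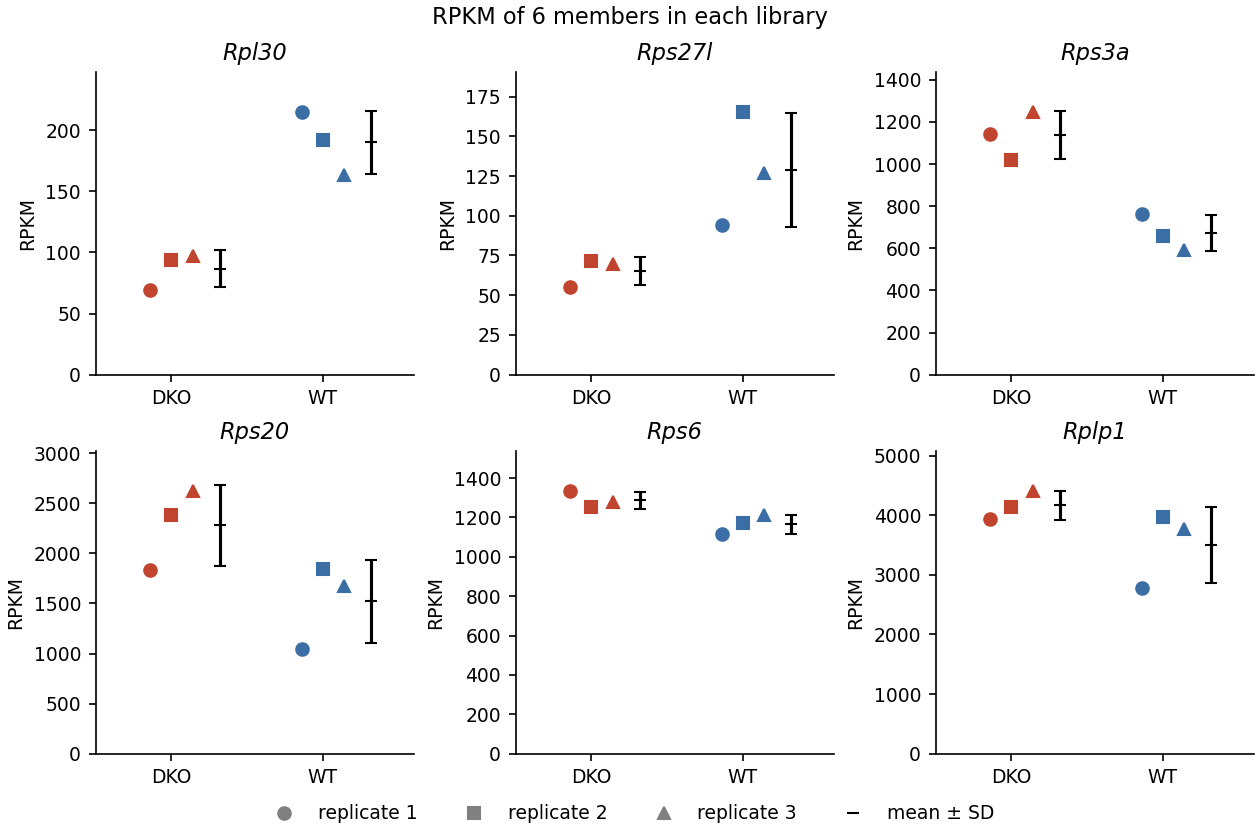
RPKM (vertical axes, each from 0) of Rpl30, Rps27l, Rps3a, Rps20, Rps6 and Rplp1 in 3 DKO and 3 WT libraries, with marks for replicates 1 to 3 and black bars for mean ± SD. The groups do not overlap in Rpl30, Rps27l, Rps3a and Rps6, and WT replicate 1 is the low library in Rps20, Rps6 and Rplp1.

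Most members and their copies had like changes. Rows of a member and its copies can share reads, and the counting of such reads is not given. The likeness may thus come from shared reads, which was not tested. Of the 69 members with copies in the table, own row and copies differed by less than 0.2 in log2 change for 64, with a median absolute difference of 0.03. The 5 others, named after their values were seen, were Rpl30 (own minus copies -1.60), Rps3a (0.86), Rpl13a (-0.71), Rpl29 (0.31) and Rpl3 (-0.21), and in these and no other members with copies the signs of row and copies were opposite. The 6 members without a copy in the table had log2 changes of 0.04 to 0.24, with a median of 0.10. Of the 24 members with over 50% of windows shared 20 were above 0, with a median of 0.11. With members summed with their copies 67 of 75 were above 0 and the median was 0.17, and the sums did not overlap between groups for 6 members above WT, against 5.66% of all genes in that fit, and 1 below, against 11.8%.

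Log2 changes were somewhat higher among shorter members. Among the 38 members of at most 682 bases, the median length, 37 were above 0 with a median log2 change of 0.20, and among the 37 longer members 28 were, with a median of 0.11. Spearman's rho of change with length was -0.29 over the 75 genes, which share the same 6 libraries. With mean RPKM it was 0.15, and with the share of windows found elsewhere -0.09.

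The genotype contrast was also compared between the sexes. The interaction of sex and genotype was called for 0 members and for 0% of all genes tested (limma, 2 residual degrees of freedom), and 0 members had an unadjusted interaction p under 0.05. With 1 male library per genotype this fit has little power, and the lowest adjusted p among members was 0.9997.

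Other genes of the pathway gave no call after adjustment in either direction. Of 5 relatives of ribosomal proteins outside the naming rule 3 were above 0. Fau, a fusion of a ubiquitin-like protein with a small subunit protein, had 812, 637 and 859 RPKM in DKO libraries, against 503, 606 and 663 RPKM in WT libraries (log2 change 0.38 ± 0.19). Rack1, a scaffold on the small subunit, had a log2 change of 0.00 ± 0.16, Rpl22l1 of 0.53 ± 0.43, Rpl7l1 of -0.62 ± 0.37 and Rpl36al of -0.08 ± 0.22. With 1 library left out, Rpl22l1 ranged from 0.07 to 0.86 and Rpl7l1 from -1.01 to -0.29.

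Of 18 other genes known for 5′ TOP mRNAs, which share the start that most ribosomal protein mRNAs have, 9 were above 0, with a median log2 change of -0.05. The translation initiation factor Eif4b had 65.1, 44.9 and 52.5 RPKM in DKO libraries, against 30.6, 39.2 and 37.3 RPKM in WT libraries, without overlap (0.58 ± 0.27, adjusted p = 0.468). The histone chaperone Nap1l1 had 46.4, 43.3 and 53.5 RPKM in DKO libraries, against 82.2, 93.6 and 73.0 RPKM in WT libraries, also without overlap (-0.78 ± 0.24, adjusted p = 0.265). The initiation factor subunit Eif3l had a log2 change of -0.67 ± 0.28, and Btf3, of the nascent chain complex, of -0.37 ± 0.18 with groups that did not overlap.

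Of 12 genes of the mTORC1 pathway 7 were above 0. Rheb, the GTPase that activates mTORC1, had 59.0, 51.3 and 60.7 RPKM in DKO libraries, against 80.8, 91.5 and 84.8 RPKM in WT libraries, without overlap (-0.58 ± 0.22, adjusted p = 0.367). Ddit4, an inhibitor of the pathway, had 15.6, 35.5 and 14.6 RPKM in DKO libraries, against 7.30, 16.6 and 8.84 RPKM in WT libraries, with overlap. Rragc had a log2 change of 0.58 ± 0.34 and Mlst8 of -0.63 ± 0.51. Of 11 chaperones and importers of ribosomal proteins 6 were above 0, and of these Bccip, whose yeast counterpart is a chaperone of a large subunit protein, had 31.6, 41.3 and 48.3 RPKM in DKO libraries, against 58.2, 58.9 and 55.0 RPKM in WT libraries. Ipo7 and Tnpo1, nuclear import receptors, had log2 changes of 0.89 ± 0.85 and 0.59 ± 0.57. With 1 library left out the change ranged from 0.36 to 1.79 for Ipo7, from 0.15 to 1.05 for Tnpo1 and from -1.01 to -0.13 for Mlst8.

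Of 8 genes of p53 and its targets 3 were above 0, with a median log2 change of -0.34. Phlda3, a p53 target that restrains Akt, had 13.0, 16.6 and 11.4 RPKM in DKO libraries, against 5.53, 7.07 and 2.90 RPKM in WT libraries, without overlap (1.30 ± 0.43, adjusted p = 0.285). Trp53 had 37.1, 5.18 and 37.7 RPKM in DKO libraries, against 59.5, 45.3 and 45.7 RPKM in WT libraries. DKO replicate 2 was far below the other libraries for Trp53. Bax, a p53 target that promotes cell death, had 7.13, 0.725 and 5.17 RPKM in DKO libraries, against 13.2, 6.92 and 10.7 RPKM in WT libraries, and Gtse1 had a log2 change of -1.19 ± 0.74 (-1.64 to -0.52 with 1 library left out). Mdm2 had a log2 change of 0.44 ± 0.31.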

How the data were processed

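Polyadenylated RNA was amplified and sequenced with an indexed Illumina kit, per the labels' protocols, and Bowtie and the mm9 build are named in the submitters' processing notes. Versions, annotation and the counting of multiply mapped reads are not given. The deposited table has 10772 rows with RPKM in 6 library columns and a gene length, and each row exceeded RPKM 3 in at least 2 libraries. RPKM times length fell within 0.05 of a whole number of reads for 99.6% to 100% of values per library. Reads in the table were 75.6% to 80.6% of the implied totals, and amplified reads are not independent molecules.

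Current names came from GENCODE M21 by identifier (9918 of 10772), and the row of highest mean was used for a repeated symbol, leaving 10755 genes. A gene entered the test if 3 or more libraries had RPKM 1 or more (10694 genes). The test was run on log2(RPKM + 1), which understates changes of low genes, with limma 3.58.1 in R 4.3.3 (lmFit, eBayes with trend, 4 residual degrees of freedom) and Benjamini-Hochberg adjustment at 0.05. The fit was tested on simulated data with log2 changes of -3, -2, 2 and 3, all larger in size than the change of any member. It called 28 of 50 genes at -2, 46 of 50 at 2, and 50 of 50 at -3 and at 3. Changes of the size seen in members were not simulated. A copy is a row with at least 10% of its 36-base windows in a member's coding transcripts, given to the member sharing most. Coding starts are the longest open reading frame of GENCODE M21 transcripts. For promoters the first listed RefSeq entry of each gene was counted.

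The members and lists were chosen with earlier results of these data known. Named members were Rpl30, the 4 with the smallest p in each subunit and direction, the 3 highest and 3 lowest in each subunit, and genes listed for their roles, and from each pathway list the 4 with the smallest p. A gene that this takes in is not reported here. Rpl39, Rpl29, Rack1, Mdm2 and the copies were named after their values were seen. The alternatives were other pseudocounts, filters, scalings, variance models, sex or replicate number in the model, and subsets of libraries.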

Additional observations from a re-analysis of the deposited data

How the results depend on the processing

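No member passed the adjusted threshold under any of the 22 alternatives tried, and of the 1141 values of named genes under them 43 changed sign and the rest kept both direction and side of the threshold. The count of all genes called was 9. It was 44 with the stricter filter, 17 when centred on the member median, 24 with array weights, 0 with voom on recovered reads, 0 with female libraries only and 1 outside replicate 1 of each genotype, and 0 to 13 when 1 library was left out (2 without WT replicate 1, and 0 when WT replicate 2 or WT replicate 3 was left out). The count of members above 0 was 32 when centred on the member median, a scale that by construction puts about as many members above 0 as below, and 40 to 67 when 1 library was left out. On own rows, the ratio of large to small subunit sums, DKO over WT, was 0.941, and 0.928 without the 3 most abundant members. The medians of all members and of each subunit moved by less than the spread between libraries. For all members that spread (SD 0.21 in DKO and 0.21 in WT, log2) was wider than the median change of 0.15. A move to 0 would therefore stay within it, and the comparison does not show that the medians were stable.

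Centred on the member median, the log2 changes were -0.0004 for Rpl10, -0.0818 for Rpl11, -0.0365 for Rpl22, -0.0603 for Rpl24, -0.15 for Rpl4, -0.0049 for Rplp2, -0.0124 for Rps26, -0.0931 for Rps27a, -0.0477 for Rps6 and -0.12 for Rpsa, by construction of that scale. Under quantile normalization they were 0.0266 for Rpl36al, -0.0013 for Rpl4, -0.0454 for Rplp1, -0.0119 for Rplp2 and -0.0668 for Rpsa, and under median ratio scaling 0.0143 for Rpl36al and 0.0331 for Rplp0. With array weights they were -0.0236 for Rpl11 and -0.0083 for Rpl24, with female libraries only 0.18 for Rplp0, and outside replicate 1 of each genotype -0.0087 for Rpl24 and -0.0453 for Rpl4. With members summed with their copies they were 0.30 for Rpl13a, 0.0395 for Rpl3 and 0.24 for Rpl30. The cause was not tested.

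With 1 library left out, the log2 change moved by over 1.5 times for 38 of 52 named genes. It ranged from -0.11 to 0.31 for Rpl11, -0.0837 to 0.30 for Rpl22, -0.099 to 0.29 for Rpl24, -0.19 to 0.0476 for Rpl36al, -0.0772 to 0.50 for Rpl38, -0.0151 to 0.12 for Rpl4, -0.22 to 0.0859 for Rplp0, -0.0645 to 0.33 for Rplp2, -0.37 to 0.0012 for Rps2, -0.0495 to 0.32 for Rps26, -0.0009 to 0.20 for Rps27a and -0.0347 to 0.18 for Rpsa.

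The replicate numbers were not taken to pair the libraries, since the labels do not say what same-numbered libraries share. The replicate 1 columns of DKO and WT are headed Set1, a name that the labels do not explain, and no other library column names a set. Deviations of same-numbered libraries correlated at 0.23, 0.15 and 0.08 over all genes, the last under the limit of 0.1 set for each pair. Over the members alone these deviations correlated at 0.74, 0.38 and 0.12, and DKO replicate 3 correlated better with WT replicate 2 (0.37) than with WT replicate 3. Over all genes each library correlated best with its own number. These correlations and the Set1 header are hints of a pairing that the labels do not state. With the number as a replicate block 9 genes were called and 0 members. At an unadjusted p under 0.05 the block gave 17 members higher, against 4.39% of genes, and 2 lower, against 10.5% of genes. The alternatives outside replicate 1 and with copies summed were chosen after seeing the data. Depth limits the 4 shallower libraries, and arms of 2 libraries assume the spread of the other group.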
